A study of Danio rerio with 48 samples.

Results

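The 32 unexposed descendants of a permethrin study in zebrafish, 16 from the permethrin lineage and 16 from the control line, were compared as 1 set. They were chosen by generation, as every library of the first (F1) and second (F2) generation of offspring among the 48 libraries of the series, and the remaining 16 libraries came from the founders (F0). The 8 PH founders had met permethrin, an insecticide of the pyrethroid class that keeps sodium channels of nerve cells from closing, at 10 µg/L early in life, the 8 SCA founders are read as controls, and F1 and F2 fish were not exposed themselves. All fish were adults of the AB laboratory line, and RNA of the whole brain was sequenced.

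Libraries carry the source codes PH and SCA, taken here to mean the permethrin lineage and its control, although no label writes the codes out. Each of the 4 combinations of generation and sex (F1 females, F1 males, F2 females and F2 males, called strata below) held 4 PH and 4 SCA libraries. A library is named by its stratum, its code and its label's number. Whether the fish of 1 group had different parents or tanks is not stated by the labels, and the p-values therefore cover the spread among these individuals, which may be partly technical. F1 and F2 libraries also differed in the share of read pairs assigned to genes, at 34.8 to 36.6% in F1 and 31.4 to 32.7% in F2. The labels name no sequencing run, and a lane is known for F2 but not for F1. Generation and any difference in sequencing therefore cannot be told apart.

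Several of the genes described belong to well-known systems. In the stress axis of teleosts, cortisol acts through the glucocorticoid receptor to induce genes such as KLF9 and FKBP5. Insulin signalling passes from its receptor through IRS adaptors and PI3-kinase to FOXO factors and to enzymes of glucose use. The circadian clock is a feedback loop in which BMAL1 and CLOCK activate PER, CRY and NR1D1 genes, whose products repress the activators, and its transcripts rise and fall with time of day.

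Counts in genes ranged from 4802827 (F1 female PH 1) to 10032850 per library in F1 and from 7381621 to 7680352 in F2. Neuron markers summed to 11970 to 17750 CPM in PH and 11960 to 16240 CPM in SCA libraries, radial glia markers to 5348 to 7438 and 5112 to 7920, and myelin markers to 8124 to 18680 and 6948 to 16910, so the labelled tissue held its defining transcripts in both arms. CPM are read counts scaled to a common library size, with sizes adjusted by TMM over the 32 libraries. Photoreceptor and eye markers stood apart: 31 of 33 tested genes had a common log2 fold change below 0, with a median of -1.12, and their summed level was 37.6 to 462 CPM in PH (median 62.9) and 42.4 to 760 CPM in SCA (median 98.8). Skeletal muscle markers reached 2980 CPM in F2 female SCA 8 and at most 1008 CPM in every other library. In bulk tissue, fewer cells of a type and less RNA per cell cannot be told apart.

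A single PH minus SCA effect was estimated for each gene over all 32 libraries, with the 4 strata as blocks, by edgeR's quasi-likelihood test. At a Benjamini-Hochberg adjusted p under 0.05, 514 of 18573 tested genes (2.77%) were called, 247 higher in the permethrin lineage (1.33%) and 267 lower (1.44%). In 477 of the 514 (92.8%), the separate effects of the 4 strata all had 1 sign, 226 higher (1.22% of all tested genes) and 251 lower (1.35%). Among all tested genes 4457 (24.0%) had 1 sign in all 4 strata, a share that the 92.8% cannot be read against as a test, since a common effect favours genes of 1 sign. The other 37 called genes had 3 of 4 strata with the sign of the common effect, and 1 of them had F1 and F2 means of opposite sign. Differences were mostly small: the median size was 0.48 on the log2 scale over the 477 genes against 0.13 over all tested genes, 257 lay under 0.5, and 51 reached 1 or more. Of the 14 that reached 2 or more, 12 had a mean level under 10 CPM.

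**Figure D1:**
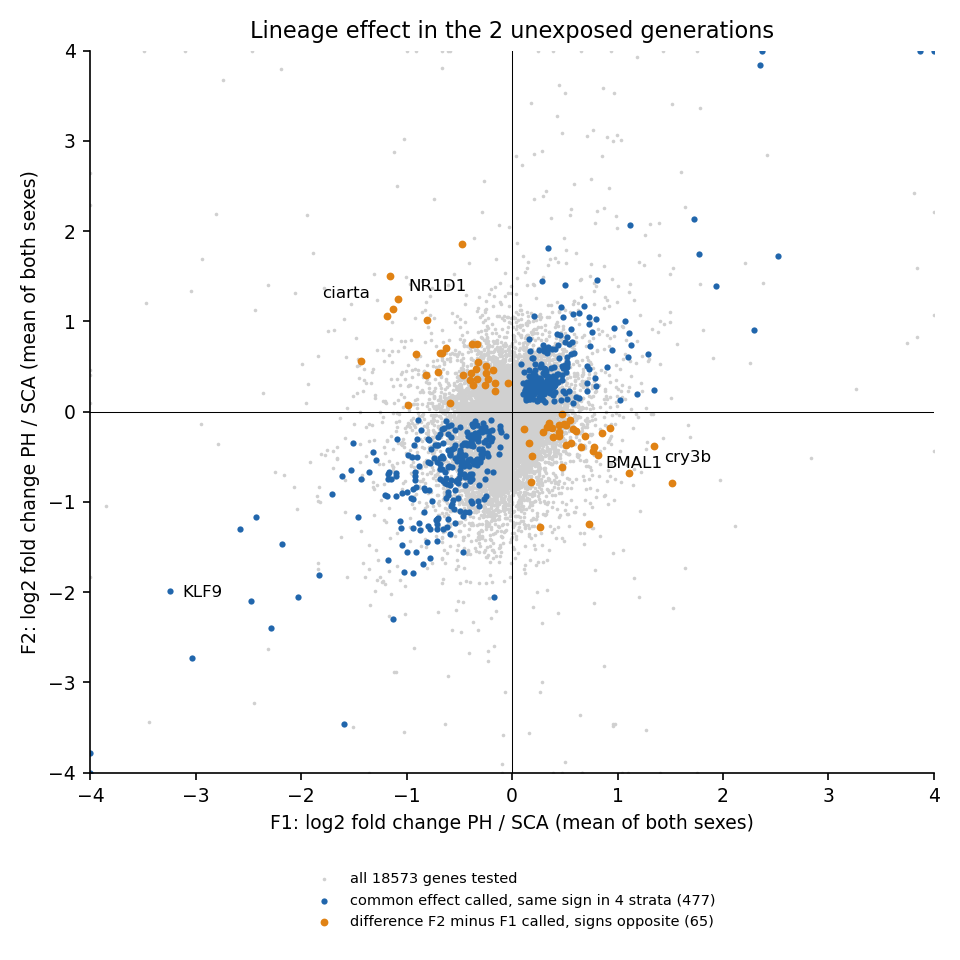
Log2 fold change of PH against SCA in F1 (horizontal axis) and in F2 (vertical axis), each averaged over both sexes, for the 18573 tested genes. Values beyond 4 are drawn at the edge. The 477 genes called in the common effect with 1 sign in all 4 strata lie in the quadrants of equal sign, and the 65 called reversing genes lie in the quadrants of opposite sign.

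KLF9, a transcription factor that responds to glucocorticoids and to thyroid hormone, was the named gene with the largest difference. In F1 females the PH libraries held 0.974, 7.08, 7.9 and 9.11 CPM and the SCA libraries 34.3, 75.2, 95.6 and 98.2 CPM. In F1 males the values were 0.504, 0.618, 1.96 and 3.18 CPM in PH and 4.63, 13.9, 14.9 and 15.5 CPM in SCA. The arms did not overlap in either sex of F1. In F2 females KLF9 stood at 4.34, 6.23, 11.4 and 21.2 CPM in PH and 51.3, 59.0, 67.5 and 86.8 CPM in SCA, and in F2 males at 8.81, 8.84, 8.98 and 15 CPM in PH and 11.4, 22.1, 29.1 and 43.7 CPM in SCA. Only the F2 males overlapped, through 1 library of each arm. The common log2 fold change was -2.59 ± 0.30 (SE, 16 against 16 libraries, edgeR adjusted p = 9.65e-06), with stratum effects from -3.53 in F1 females to -1.36 in F2 males.

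IRS2 (ENSDARG00000075282), an adaptor of the insulin receptor, and PRDM12, a transcription factor of neuronal development, were the 2 genes of 18573 (0.0108%) whose PH and SCA libraries lay apart, in 1 direction, in each of the 4 strata. IRS2 held 67.2 to 98.3 CPM in PH and 105 to 170 CPM in SCA F1 females, 50.6 to 69.5 against 71.3 to 104 CPM in F1 males, 120 to 155 against 214 to 265 CPM in F2 females, and 136 to 164 against 174 to 205 CPM in F2 males. IRS2 differed between the generations too, and the F2 PH median of 144 CPM lay above the F1 SCA median of 104 CPM. The common log2 fold change was -0.63 ± 0.07 (edgeR adjusted p = 9.65e-06). PRDM12 held 17.3 to 27.1 CPM in PH and 14.7 to 16.9 CPM in SCA F1 females, 28.2 to 38.5 against 16.1 to 20.6 CPM in F1 males, 12.6 to 17.9 against 8.68 to 11.6 CPM in F2 females, and 13.0 to 14.9 against 7.32 to 12.5 CPM in F2 males. For PRDM12 the common log2 fold change reached 0.61 ± 0.08, at an edgeR adjusted p of 2.42e-05. For no gene did all 16 PH libraries lie on one side of all 16 SCA libraries.

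**Figure D2:**
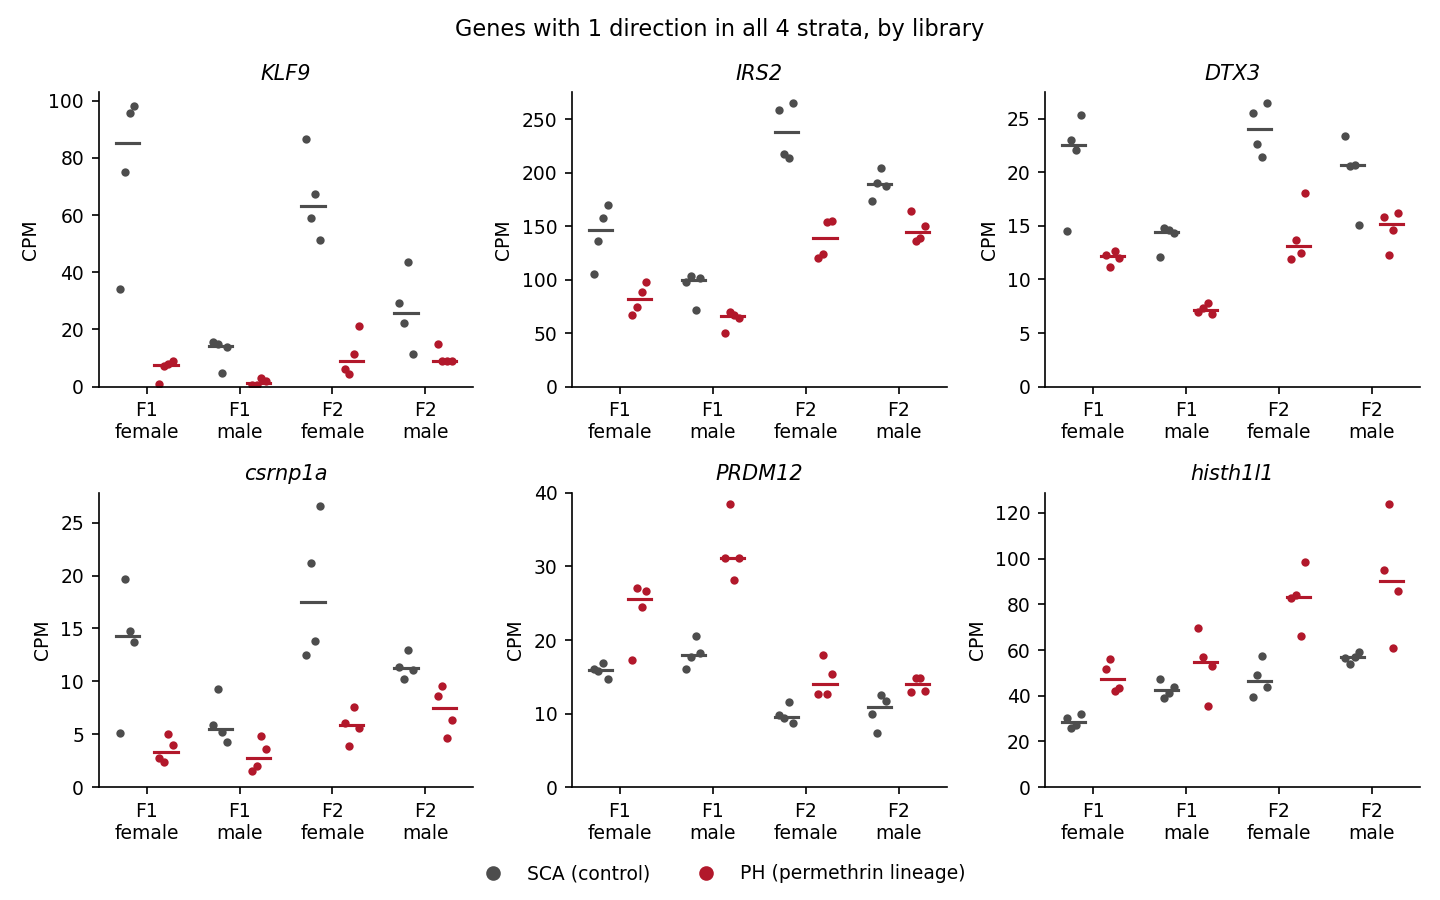
Level in CPM (linear axis) of 6 genes with 1 direction in all 4 strata, 1 point per library and a bar at the median of each group of 4. In each stratum the PH median lies below the SCA median for KLF9, IRS2, DTX3 and csrnp1a and above it for PRDM12 and histh1l1.

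The remaining genes of smallest p among those lower in the permethrin lineage came from several functions. DTX3, a ubiquitin ligase, ran from 6.82 to 18.1 CPM in the 16 PH libraries (median 12.3) and from 12.1 to 26.5 CPM in the 16 SCA libraries (median 21.1). The arms of DTX3 lay apart in F1 and in F2 females and overlapped in F2 males. Its common effect of -0.74 ± 0.08 had the smallest adjusted p of all genes (edgeR, 3.83e-06). SLC3A2, the heavy chain of amino acid transporters, ran from 54 to 69.1 CPM in PH (median 60.6) and from 62.6 to 125 CPM in SCA (median 81.0), a difference of -0.49 ± 0.06. The translation initiation helicase eif4a1a (-0.63 ± 0.08), the ETS-family repressor ERF (ENSDARG00000063417, -0.75 ± 0.11), the atypical MAP kinase MAPK6 (-0.46 ± 0.07), the transcriptional coregulator SERTAD2 (-0.98 ± 0.14) and the kinase-like protein STK40 (-1.14 ± 0.16) were also lower. So were RERGL (-0.54 ± 0.08), a RAS-like protein, and HIVEP1 (-0.54 ± 0.09), a zinc finger transcription factor.

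Of the stress axis and glucocorticoid list, 6 of 39 tested genes were called lower and 0 higher, next to 1.44% and 1.33% of all genes, and the list median was -0.09 on the log2 scale against 0.00 for all genes. Beside KLF9 these were PDK2 (ENSDARG00000020876), HSD11B2, FKBP5, DUSP1 and CEBPD. Some genes were counted in more than 1 list: KLF9 also among thyroid hormone genes, PDK2 among insulin and fuel genes, and DUSP1 among immediate-early genes. HSD11B2, the enzyme that inactivates cortisol, ran from 2.92 to 16 CPM in PH (median 7.28) and from 5.23 to 43.5 CPM in SCA (median 14.6), with a common effect of -1.02 ± 0.20 (edgeR adjusted p = 0.00484). The arms overlapped over much of their range. FKBP5, a co-chaperone of the glucocorticoid receptor that is induced through it, was named after its values were seen. It ran from 2.57 to 343 CPM in PH (median 75.1) and from 29.4 to 671 CPM in SCA (median 366), a difference of -1.93 ± 0.38 (edgeR adjusted p = 0.00603). CEBPD, a glucocorticoid-responsive transcription factor, stood at -0.93 ± 0.26 and the phosphatase DUSP1 at -0.64 ± 0.14, both also chosen after their values were seen. KLF9 was the only member called of 24 tested thyroid hormone genes, of which 9 lay above 0. These gene lists and those below were chosen with earlier results of these data known, so their shares carry no test.

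Of the insulin signalling and fuel list, 9 of 60 genes were called lower and 0 higher, next to 1.44% and 1.33% of all genes, with a list median of -0.14. In signalling, IRS2, the PI3-kinase regulatory subunits pik3r3a (-1.07 ± 0.18, edgeR adjusted p = 0.00112) and PIK3R1 (-0.30 ± 0.06), and the factors foxo3b (-0.39 ± 0.09) and foxo6a (-0.55 ± 0.16) were lower. The level of pik3r3a ran from 10.8 to 39.4 CPM in PH (median 24.1) and from 18.3 to 86.8 CPM in SCA (median 50.8), so that the PH median lay near the low end of the SCA range. In fuel use, PDK2, which restrains pyruvate dehydrogenase, ran from 28.9 to 73 CPM in PH (median 54.9) and from 41.7 to 104 CPM in SCA (median 80.6), a difference of -0.58 ± 0.09. PFKFB4, which sets the glycolytic activator fructose 2,6-bisphosphate, was lower by -0.96 ± 0.18 on the log2 scale, and TXNIP (ENSDARG00000036107), a brake on glucose uptake, and SLC2A1 (ENSDARG00000007412), a glucose transporter, by -0.43 ± 0.09 and -0.95 ± 0.21. The forkhead factors, TXNIP and SLC2A1 did not meet the naming rule and were picked with their values in view. SLC2A1 is a low gene here, with medians of 0.854 CPM in PH and 1.59 CPM in SCA.

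Of the immediate-early list, transcripts that neurons induce on activity, 6 of 52 were called lower and 2 higher, next to 1.44% and 1.33% of all genes. The list median was -0.12, and 15 of the 52 lay above 0, as did 9451 of all 18573. By stratum, the list median was -0.41 in F1 females and -0.21 in F1 males. It was 0.04 in F2 females and -0.06 in F2 males, so the shift of the list as a whole lay in F1. The paralogs csrnp1a and CSRNP1, which encode nuclear transcription factors, both were lower. Values of csrnp1a ran from 1.54 to 9.56 CPM in PH (median 4.73) and from 4.25 to 26.6 CPM in SCA (median 12), a difference of -1.32 ± 0.19 (edgeR adjusted p = 0.000177). CSRNP1 ran from 7.31 to 25 CPM in PH (median 12.1) and from 13 to 46.2 CPM in SCA (median 25.9), a difference of -0.95 ± 0.17. The other calls, chosen after their values were seen, were fosaa (-0.95 ± 0.25), crema (-0.79 ± 0.20), DUSP4 (-0.66 ± 0.17) and DUSP1 on the lower side, and egr4 (0.52 ± 0.14) and IER5L (0.20 ± 0.06) on the higher side. IER5L did not keep 1 sign in all 4 strata, at -0.01 in F2 males.

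Over the called genes the median absolute log2 fold change was 0.34 for the 247 higher and 0.59 for the 267 lower. The 15 named higher genes ran from 0.21 (PDCD4, a brake on translation) to 0.91 (GPATCH3) on the log2 scale, while the 15 named lower genes ran from -2.59 to -0.46 (MAPK6). SOX3, a transcription factor of neural progenitors, ran from 28.9 to 47.5 CPM in PH (median 34.0) and from 17.5 to 39.0 CPM in SCA (median 25.6), a difference of 0.44 ± 0.07 (edgeR adjusted p = 0.000207). The PH and SCA libraries of SOX3 lay apart in F1 females and in both sexes of F2 and overlapped in F1 males. The linker histone gene histh1l1 ran from 35.5 to 124 CPM in PH (median 63.5) and from 25.8 to 59.1 CPM in SCA (median 43.8), a difference of 0.64 ± 0.09 (edgeR adjusted p = 0.000102); as a member of a family of near-identical genes its counts are uncertain. METRN, a secreted factor of glia and neurites, was higher by 0.36 ± 0.06, the cilium protein DZIP1 by 0.38 ± 0.06, the sphingomyelin phosphodiesterase smpd5 by 0.85 ± 0.15, and GPATCH3 by 0.91 ± 0.16.

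Other higher genes had varied functions. SLC25A28, a mitochondrial iron importer, was higher by 0.31 ± 0.05, COQ5, a methyltransferase of ubiquinone synthesis, by 0.38 ± 0.07, and FBL, the nucleolar methyltransferase fibrillarin, by 0.26 ± 0.05. TMEM178A (0.40 ± 0.08), FNDC10 (0.39 ± 0.08), PTGES2, a prostaglandin E synthase (0.28 ± 0.06), and PDCD4 completed the named set together with the clock-list gene lonrf4. Of the nuclear respiratory chain list, 2 of 77 genes were called higher and 0 lower, both of them HCCS, which attaches haem to cytochrome c (ENSDARG00000099358 at 0.52 ± 0.11 and ENSDARG00000028131 at 0.49 ± 0.13). That share of 2.60% is close to the 2.77% of all genes, although 57 of the 77 lay above 0. HCCS (ENSDARG00000028131) did not keep 1 sign in all 4 strata, at -0.03 in F2 males.

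**Figure D3:**
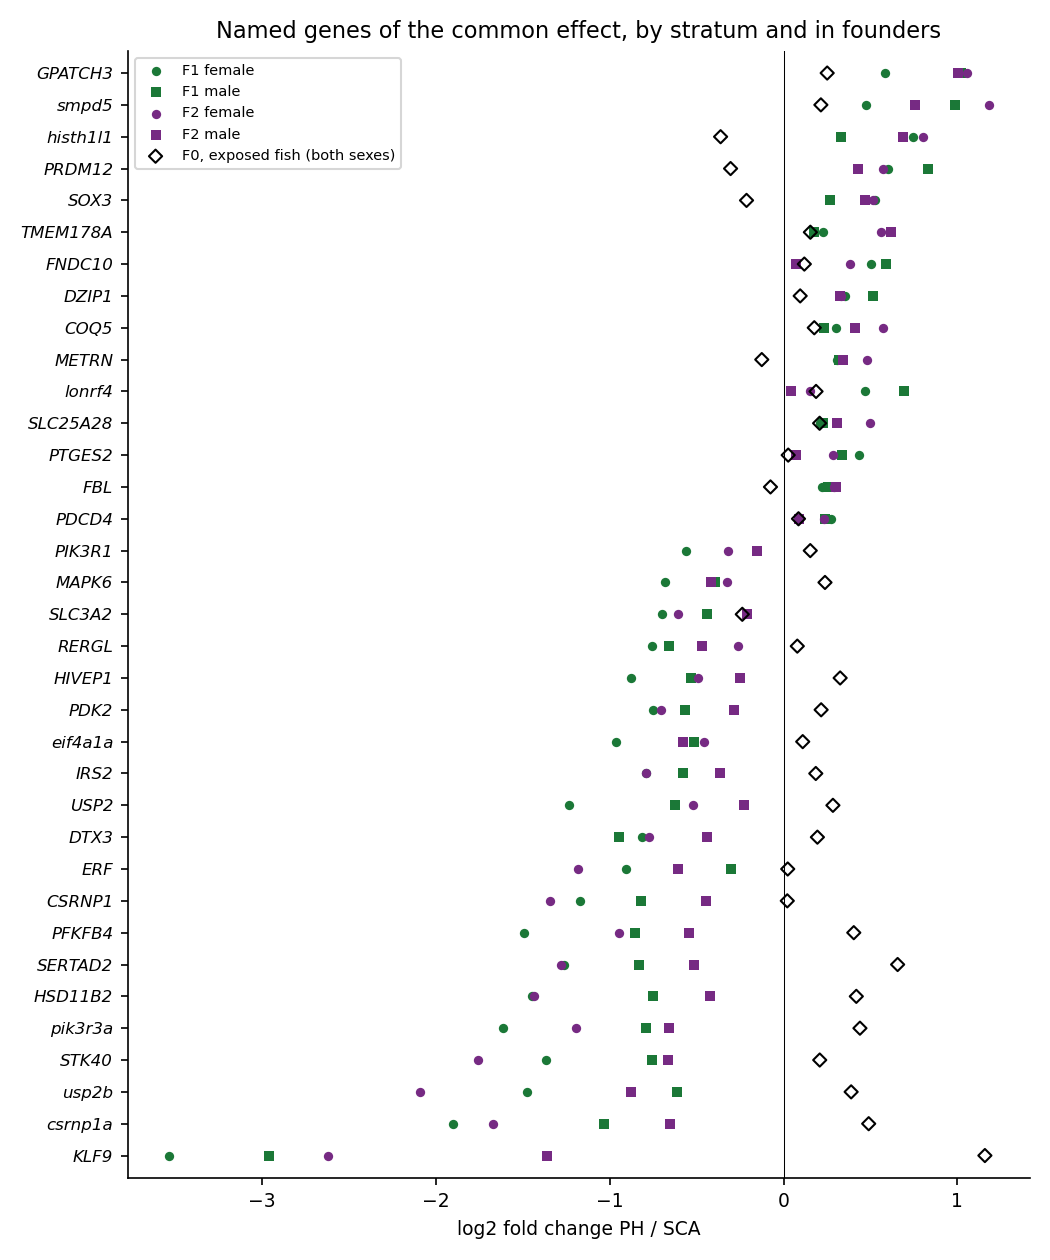
Log2 fold change of PH against SCA in each of the 4 descendant strata for the named genes with 1 direction, with the founder effect (F0, 16 other libraries, both sexes) as a diamond. All stratum points of a gene lie on 1 side of 0, and of the lower genes only SLC3A2 has its founder diamond below 0.

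The size of the effect varied between strata. Over the 477 genes the median absolute log2 fold change was 0.48 in F1 females, 0.37 in F1 males, 0.52 in F2 females and 0.37 in F2 males. F2 females had the largest of the 4 effects in 209 of the genes and F1 females in 151, against 52 for F1 males and 65 for F2 males. In F2 females, PH libraries 3 and 4 ran on lane 2 and all other libraries on lane 3. Arm and lane are therefore partly mixed in that stratum. Of the 15 named lower genes, 14 had the larger absolute effect in females in F1 and 12 in F2, and of the 15 named higher genes 6 and 13. Over all tested genes females had the larger absolute effect in 49.6% in F1 and 62.3% in F2. A test of the difference between the sexes, averaged over both generations, called 0 of 18573 genes by edgeR and by limma voom and 2 by DESeq2. At an unadjusted p under 0.05 edgeR gave 1140 (6.14%).

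The founders, whose 16 libraries entered none of these fits, were set beside the descendants. All male SCA founder libraries ran on lane 2 and all other founder libraries on lane 4. In founder males, arm and lane therefore cannot be told apart, and the founder effects below carry this limit. No gene was called in F0 by edgeR (0 of 18081) or limma voom, with 1366 (7.55%) at an unadjusted p under 0.05 and 52 called by DESeq2. Of the 15 named genes lower in the descendants, 14 had a higher mean in PH founders, with a median log2 fold change of 0.22 and a range of -0.24 to 1.16. An unadjusted p under 0.05 was found in 5 of the 15, of which 4 were opposite in sign to the descendants, and none passed adjustment (lowest edgeR adjusted p = 0.166). KLF9 stood at 1.16 ± 0.50 in founders (edgeR unadjusted p = 0.0353) and the exception, SLC3A2, at -0.24 ± 0.11. Of the 15 named higher genes, 5 had the opposite sign in founders, among them PRDM12 (-0.30 ± 0.14). Of the 477 called genes with 1 sign in all 4 strata, 247 lower and 217 higher ones were tested in founders. Of these, 130 lower (52.6%) and 62 higher ones (28.6%) were opposite in sign there, against 40.9% of all tested genes.

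The effects of F1 and F2, which share no library, were also estimated in separate fits. In F1 alone 118 of 18094 genes were called (0.652%) and in F2 alone 194 of 17505 (1.11%). Leaving out 1 library moved these counts to between 52 and 144 in F1 and between 74 and 1030 in F2, and DESeq2 called 358 and 869, so the shares below hold for these fits alone. Of the 115 F1 calls tested in F2, 79 (68.7%) had the same sign there, and of the 184 F2 calls tested in F1, 131 (71.2%), against 58.4% of the 17187 genes tested in both. Calls in both numbered 15, which is 12.7% of the F1 and 7.73% of the F2 calls. Of these, 13 had the same direction, all lower: KLF9, IRS2, DTX3, SLC3A2, eif4a1a, ERF, MAPK6, STK40, RERGL, csrnp1a, usp2b, si:dkey-201c13.2 and ENSDARG00000099719. The other 2, smu1b and dbpb, were lower in F1 and higher in F2.

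A direct test of the F2 minus F1 difference of the lineage effect called 68 of 18573 genes (0.366%), with 2400 (12.9%) at an unadjusted p under 0.05. In 65 of the 68 (0.35% of all tested genes) the F1 and F2 effects had opposite signs, as they had in 41.4% of all tested genes. These shares cannot be read against each other as a test, since a large difference favours genes of opposite signs. Of these, 32 had an effect below 0 in F1 and above it in F2 and 33 the other way round, and in 60 both sexes had the sign of their generation. The test that these genes passed is that of the difference. The separate effects of the 2 generations in the same model were called in 38 of the 65 for F1 (1.23% of all tested genes) and in 30 for F2 (2.98%). In 9 genes both were called, all of them among the 32 lower in F1 and none among the 33. None of the 65 was called in the common effect, in which effects of opposite sign cancel. The other 3 genes were called in both tests without reversing: lonrf4 and NEIL1, a DNA repair glycosylase, were higher in all 4 strata and more so in F1, and EPX was lower and more so in F2. Reversing genes were more abundant in counts, with a median level of 51.8 CPM against 19.3 CPM for the 477 genes of 1 direction. The median of all genes was 11.3 CPM. These levels are not scaled by gene length, and genes with many counts pass a test more readily. In the named genes the difference also had larger standard errors than the common effect, so the comparison of levels carries no test.

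Clock genes made up 16 of the 68 differences (23.5%), or 30.8% of the 52 clock genes tested, next to 0.366% of all genes. Of the 16, 15 reversed. Members of this list were chosen with earlier results of these data known, so its shares carry no test. NR1D1, a repressor of BMAL1, held 67.6, 70.0, 147 and 193 CPM in PH and 234, 237, 258 and 277 CPM in SCA F1 females. In F1 males it held 51.1, 58.8, 186 and 207 CPM in PH and 239, 250, 274 and 312 CPM in SCA. In F2 females the values were 94.1, 119, 129 and 189 CPM in PH and 48.8, 60.7, 62.2 and 74.7 CPM in SCA, and in F2 males 57.4, 103, 135 and 169 CPM in PH and 29.1, 37.5, 46.7 and 64.0 CPM in SCA. PH lay wholly below SCA in both sexes of F1, wholly above it in F2 females, and above it with 1 overlapping library in F2 males. The log2 effect was -1.08 in F1 and lay above 0 in F2, a difference of 2.33 ± 0.39 (edgeR adjusted p = 0.00281), and the common effect was 0.05 ± 0.30.

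In each sex of F1 the PH libraries of NR1D1 fell into 2 low and 2 higher ones. The low ones, females 1 and 2 and males 4 and 6, were also the 4 lowest F1 libraries in PER1 (ENSDARG00000012499), at 154 to 226 CPM against 305 to 367 CPM in the other 4 PH libraries and 372 to 437 CPM in the F1 controls. PER1, a repressor of the clock, went from an effect of -0.66 in F1 to 0.65 in F2, a difference of 1.32 ± 0.21 (edgeR adjusted p = 0.00165). Its F2 libraries held 244 to 412 CPM in PH and 178 to 259 CPM in SCA.

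**Figure D4:**
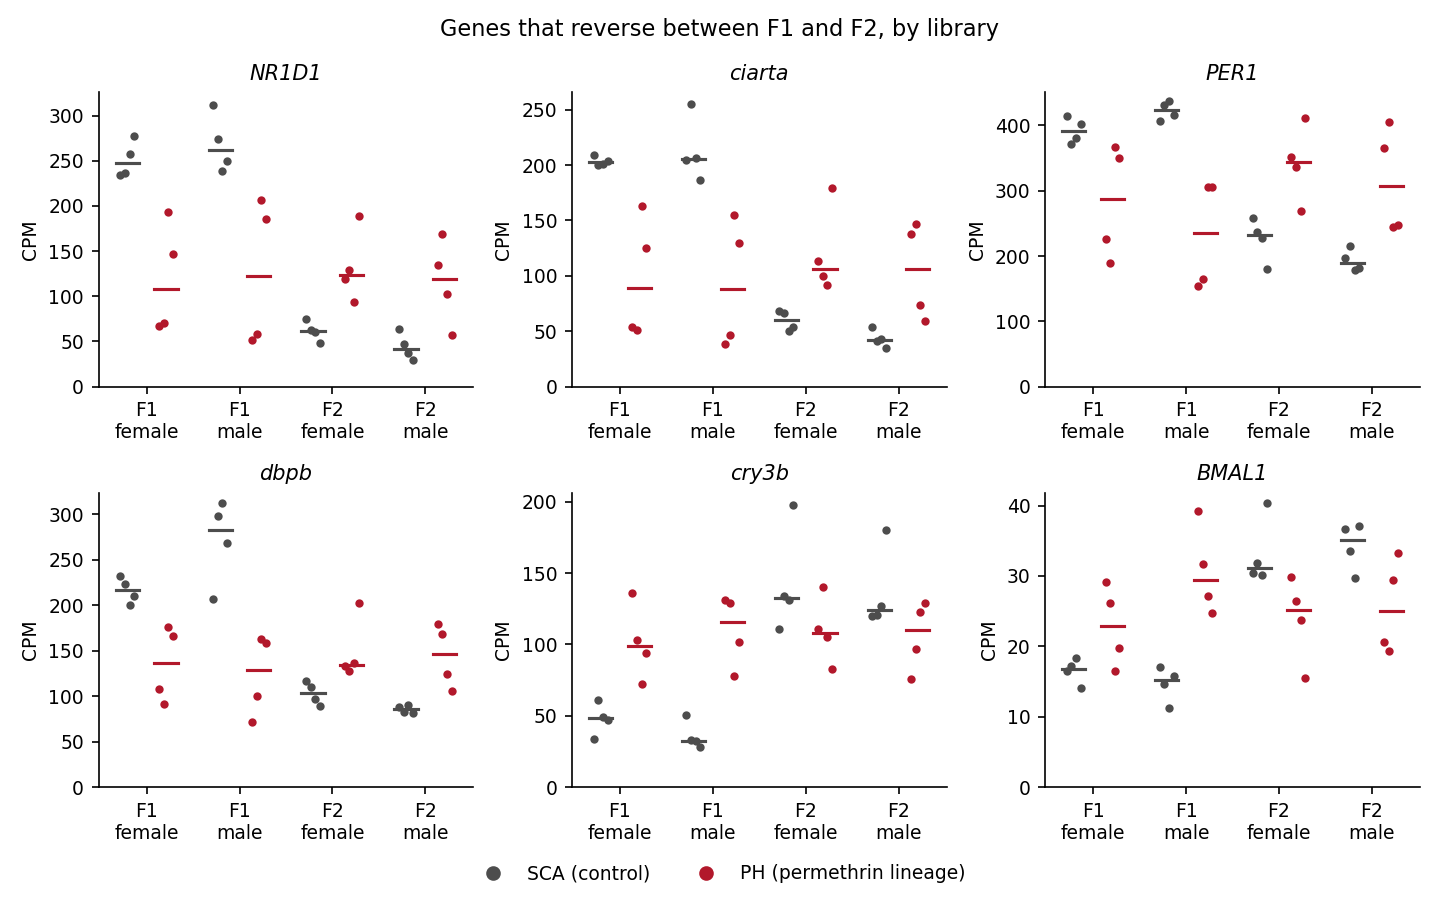
Level in CPM (linear axis) of 6 reversing genes, 1 point per library and a bar at the median of each group of 4. The PH medians of NR1D1, ciarta, PER1 and dbpb lie below SCA in F1 and above it in F2, those of cry3b and BMAL1 the other way, and the SCA medians differ more between F1 and F2 than the PH medians.

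Among the other clock genes that were lower in F1 and higher in F2, dbpb, an output factor of the PAR bZIP family, ran from 71.3 to 176 CPM in PH and 200 to 312 CPM in SCA in F1, and from 106 to 202 against 82.0 to 117 CPM in F2. Its difference was 1.55 ± 0.22 (edgeR adjusted p = 0.000661). The repressors of CLOCK and BMAL1 cipca and ciarta differed by 1.82 ± 0.31 and 2.27 ± 0.38, though cipca is not a member of the clock list and was not counted with it. Other clock genes had the signs the other way round. The cryptochrome cry3b ran from 72.0 to 136 CPM in PH and 27.8 to 61.0 CPM in SCA in F1, and from 76.0 to 140 against 111 to 198 CPM in F2, a difference of -1.72 ± 0.23 (edgeR adjusted p = 0.000635). Its close relative cry3a had effects of 0.93 in F1 and -0.18 in F2 (difference -1.11 ± 0.18) and the activator BMAL1 (ENSDARG00000006791) of 0.76 and -0.44 (difference -1.21 ± 0.20), and for all 3 only the F1 effect was called. Reads of near-identical copies such as cry3a and cry3b may be shared or lost.

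Reversing genes outside the clock list had varied functions. The splicing factor smu1b had log2 effects of -0.81 in F1 and 0.41 in F2, a difference of 1.22 ± 0.17. The transcription factor ZNF395 (ENSDARG00000024195) stood at -0.38 and 0.75 (difference 1.13 ± 0.17) and the heat shock factor HSF2 at -0.33 and 0.75 (difference 1.08 ± 0.17). In the model of the difference, only the F1 effect of smu1b and only the F2 effects of ZNF395 and HSF2 were called. With the signs the other way, uqcc3, an assembly factor of respiratory complex III, stood at 0.58 in F1 and -0.19 in F2 (difference -0.77 ± 0.11) and the lipid transporter ABCA7 at 0.77 and -0.40 (difference -1.17 ± 0.20). The efflux transporter ABCC1 stood at 0.55 and -0.09 (difference -0.64 ± 0.12), rsrp1 at 0.61 and -0.21 (difference -0.82 ± 0.14) and the extracellular matrix gene ecm1b at 0.65 and -0.40 (difference -1.05 ± 0.19). In these 5 genes the F1 effect was called and the F2 effect was not. The difference was called in 3 of 53 heat shock and unfolded protein genes, among them HSF2, in 4 of 77 respiratory chain genes, among them uqcc3, in 3 of 39 stress axis genes and in 1 of 18 radial glia markers, next to 0.366% of all genes. Of these stress axis genes only FKBP4 lies outside the clock list. The others, PER1 (ENSDARG00000056885) and PER1 (ENSDARG00000012499), were also counted among the clock genes above.

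Levels within each arm show where the reversing genes moved between generations. For 14 of the 16 named reversing genes all 8 F1 SCA libraries lay apart from all 8 F2 SCA libraries, and for 1 of the 16 the PH libraries did. Over the 65 genes this held for 34 (52.3%) in SCA and 13 (20%) in PH, against 6.4% and 7.35% of all tested genes. The change from F1 to F2 was larger in SCA than in PH in 44 of the 65 (67.7%), against 46.1% of all tested genes. NR1D1 changed from F1 to F2 by -2.31 on the log2 scale in SCA and by 0.01 in PH, and cry3b by 1.75 and 0.03. The named gene rsrp1 went the other way, with changes of 0.14 in SCA and -0.68 in PH. These changes are parts of the difference by which the genes were chosen, so they carry no test. A change between generations also cannot be told apart from any difference in sequencing.

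The clock list also held genes of 1 direction. In the common effect, 3 of its 52 genes were called higher and 7 lower, next to 1.33% and 1.44% of all genes. The list median was -0.02, and 8 of the 10 had 1 sign in all 4 strata. The exceptions were nr1d2a and nfil3-6, called lower, with effects of 0.10 and 0.01 in F2 males. The deubiquitinases usp2b and USP2, clock-controlled in mammals, were lower. Levels of usp2b ran from 1.88 to 4.53 CPM in PH (median 2.91) and from 2.44 to 16 CPM in SCA (median 6.85), a difference of -1.26 ± 0.19 (edgeR adjusted p = 0.00021), and USP2 stood at -0.65 ± 0.12. The output factors tefb (-0.73 ± 0.16) and HLF (-1.42 ± 0.32) and the repressors nr1d2a (-0.70 ± 0.16) and nfil3-6 (-0.69 ± 0.19) were lower as well, and the photolyase relatives cry5 (0.50 ± 0.10) and cry-dash (0.50 ± 0.11) higher; these 6 and CSNK1D (-0.15 ± 0.04) were chosen after their values were seen. The list member lonrf4, at 138 to 357 CPM in SCA and 259 to 372 CPM in PH, was called both in the common effect (0.34 ± 0.07) and in the difference (-0.49 ± 0.10).

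**Figure D5:**
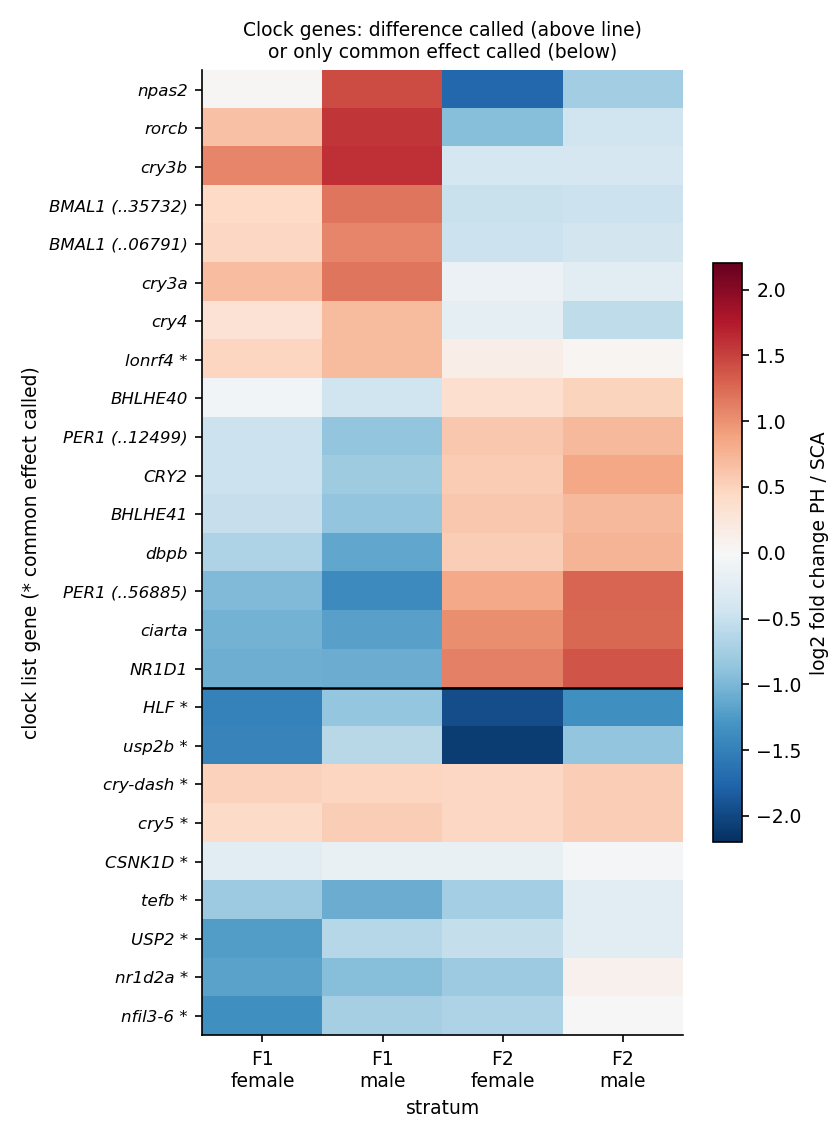
Log2 fold change of PH against SCA (colour) in each of the 4 strata (columns) for the clock genes called in the F2 minus F1 difference (above the line) or only in the common effect (below). Above the line all genes but lonrf4 change colour between F1 and F2 means, and 8 of the 10 genes with an asterisk, called in the common effect, keep 1 sign in all 4 strata.

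A score of the clock list, the first principal component of its 52 genes after stratum means were removed, took 43.1% of their variance. In F1 females PH libraries scored from -4.47 to 0.68 and SCA libraries from 1.38 to 2.25, and in F1 males from -5.26 to -0.11 and from 2.29 to 2.94. In F2 females PH scored from 0.06 to 3.46 and SCA from -1.53 to -0.66, and in F2 males from -0.94 to 3.86 and from -2.75 to -0.53. The arms lay apart in 3 strata and overlapped in F2 males, with the order of F1 turned round in F2. With this score as a covariate the common effect called 1045 genes, 509 of them shared with the 514, while the F2 minus F1 difference, in a fit added after the data were seen, called 0 genes by edgeR, with 869 (4.68%) at an unadjusted p under 0.05. The score is built from clock genes, so that it contains the reversal itself. The hour of dissection is not given in the sources used here, and its part in these differences was not tested.

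Lists of other systems and of cell types held between 0 and 2 calls each, with shares on both sides of the 2.77% of all genes. Voltage-gated sodium channel genes, the family that permethrin acts on, had 1 of 10 called, scn12aa at -0.77 ± 0.19. In the common effect 0 of the 10 lay above 0, with a median of -0.19. By stratum the median ran from -0.07 in F1 males to -0.57 in F2 females, where arm and lane are partly mixed. Only scn12aa, a low gene at a mean of 1.09 CPM, was lower in all 4 strata, and 3 of the 10 had opposite signs in F1 and F2. DNA methylation genes had 2 of 25 called lower, KDM6B (-0.55 ± 0.11), which is a histone demethylase, and TET1 (-0.80 ± 0.22), which oxidises methylcytosine. TET1 did not keep 1 sign, at -1.67 in F2 females and 0.14 in F2 males, and KDM6B stood at -0.01 in F2 males. As a whole the DNA methylation list had 14 of 25 genes above 0 and a median of 0.04, with 2 higher and 2 lower in all 4 strata. Heat shock genes had 1 of 53 called lower, TRIB3 (-0.34 ± 0.09), and cholesterol synthesis genes 0 of 27. Radial glia markers had 2 of 18 called higher, ID1 (0.39 ± 0.09) and SOX2 (0.22 ± 0.05), both regulators of progenitors. The list as a whole did not move with them. Of the 18, 10 lay above 0, with a median of 0.05, and 3 were higher and 4 lower in all 4 strata. Their summed level had a median of 6232 CPM in PH and 6243 CPM in SCA. The called genes of this paragraph were chosen after their values were seen.

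Markers of other tissue differed between libraries. Among photoreceptor genes, 23 of 33 were lower in all 4 strata, with median effects of -1.09 in F1, -1.25 in F2 and -1.06 in founders, and 1 was called, the cone transducin GNAT2 (-0.97 ± 0.25). With the summed level of that list as a covariate, chosen after the level was seen, 553 genes were called, 228 higher and 325 lower. Of these, 370 were among the 514, so that 144 calls were lost, none of them among 35 named genes followed through every fit. Of 29 skeletal muscle genes 1 was called, RYR1 (ENSDARG00000023797, -0.24 ± 0.06). Liver and egg yolk genes had a median of 0.82 over 10 genes with 0 called. By stratum that median was 0.58 in F1 females, 0.35 in F1 males, 1.83 in F2 females and -0.15 in F2 males. Only 2 of the 10 were higher in all 4 strata. No gene was called among 23 cerebellum, 22 hypothalamus, 15 erythrocyte, 17 microglia and 19 neuron markers tested. Nor was one called among 13 myelin, 12 pineal, 13 keratinocyte and 1 pituitary markers. In the telencephalon list 1 of 20 markers was called (foxg1b, -1.15 ± 0.21), against the direction of most of the list. Of these 20 markers 16 lay above 0, with a median of 0.17, and 8 were higher and 1 lower in all 4 strata. Of 23 meninges and vessel markers 2 were called (MFSD2A at -0.38 ± 0.08 and FOXC1 at 0.52 ± 0.14).

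The count of 514 moved with the libraries used. Leaving out 1 library at a time gave 314 to 1000 calls, and the 314 without F2 female PH 4 held 307 of the 514. Leaving out both F2 PH females sequenced on lane 2, in which no other library of F2 ran, gave 235. Without F2 female SCA 8 and F2 male PH 11, which earlier results of these data marked for muscle genes, 331 were called. In the muscle markers summed here no PH library, male PH 11 among them, exceeded 1008 CPM, against 2980 CPM in F2 female SCA 8. The count was 88 without F1 females and 66 without F2 females. It was 300 without F2 males and rose to 605 without F1 males, of which 327 were among the 514. KLF9, IRS2, DTX3, SLC3A2, eif4a1a, ERF, MAPK6, RERGL, STK40, csrnp1a and usp2b kept their call in each of these fits and in F1 and F2 alone. The calls of FNDC10, PDCD4, PTGES2, HSD11B2 and PIK3R1 were lost both without F1 females and without F2 females, those of lonrf4 and PFKFB4 without F1 females, and those of SLC25A28, TMEM178A, COQ5 and CSRNP1 without F2 females. FNDC10 and lonrf4 also lost theirs without F1 males. Genes chosen after their values were seen were not followed through these fits.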

How the data were processed

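The deposited files hold raw read counts of 32520 Ensembl genes per library. For the authors' processing, the submitters' processing notes name the build GRCz11 (danRer11) and the tools HTSeq 0.11.2, STAR 2.7 and DESeq2 1.24.0. Neither the strand setting nor the annotation release is given in the sources used here, and overlapping or antisense genes cannot be told apart. Summary lines that name no gene stayed out, of which reads over no feature made up 60.3 to 65.4% of all counted pairs. Symbols, given to 29201 IDs by the reference table of gene names, often follow human spelling.

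Genes passing filterByExpr (18573) were fitted in R 4.3.3 with edgeR 4.0.16 (TMM, robust glmQLFit and glmQLFTest) on 32 libraries. The common effect had 4 stratum blocks and 1 arm term. A model of 8 group means gave stratum, generation and sex contrasts. F0, F1 and F2 alone were fitted with their 2 sexes as blocks. Calls had a Benjamini-Hochberg adjusted p under 0.05. Standard errors come from the F statistic. Replicates differed by a chi-square of at least 4.78 per degree of freedom, so none was counted as a duplicate. Alternatives used limma 3.58.1 (voom), DESeq2 1.42.0, other scalings, filters and library sets.

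Named genes had a call, 1 sign in all 4 strata, a gene symbol and at least 1 CPM on average (the 15 of smallest p per direction), or were among the 12 called members of smallest p of 6 gene lists. Reversing genes were the 8 of smallest p per direction called in the F2 minus F1 difference. Members and lists were chosen with earlier results of these data known. No sequence is given.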

Additional observations from a re-analysis of the deposited data

Results flagged for a closer look

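For 17 named genes the lineage effect differed between F1 and F2 in the direct test. All but lonrf4, named for its common effect, were chosen by this same test, so its outcome for them was fixed by the choice. On the log2 scale the F2 minus F1 difference was 1.22 for smu1b, 1.55 for dbpb, 1.13 for ZNF395, 1.08 for HSF2, 1.32 for PER1 (ENSDARG00000012499), 1.82 for cipca, 2.27 for ciarta and 2.33 for NR1D1. It was -1.72 for cry3b, -0.77 for uqcc3, -1.11 for cry3a, -1.21 for BMAL1 (ENSDARG00000006791), -1.17 for ABCA7, -0.82 for rsrp1, -1.05 for ecm1b, -0.64 for ABCC1 and -0.49 for lonrf4. The edgeR adjusted p of these ran from 0.000635 (cry3b and smu1b) to 0.0199 (lonrf4).

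In 17 of 408 groups of 4 libraries, 1 library stood far from the other 3 by Dixon's gap test, which flags about 5% of groups by chance. Among genes of 1 direction these were KLF9 in F1 male SCA 10 (4.63 CPM, the others from 13.9) and F2 male PH 11 (15 CPM, the others up to 8.98), and SERTAD2 in F1 female PH 2 (15 CPM), F1 female SCA 4 (23.1 CPM) and F2 male PH 11 (36.7 CPM). Further ones were STK40 in F2 male PH 6 (3.77 CPM), usp2b in F1 male SCA 12 (6.83 CPM), TMEM178A in F2 male PH 9 (116 CPM), lonrf4 in F1 female PH 1 (320.0 CPM), HSD11B2 in F1 male PH 6 (5.80 CPM) and PIK3R1 in F1 male SCA 14 (240.0 CPM). Among reversing genes they were smu1b in F1 male SCA 5 (261 CPM) and F2 female PH 16 (163 CPM), dbpb in F2 female PH 16 (202 CPM), cry3b in F2 male SCA 10 (180.0 CPM), BMAL1 in F2 female SCA 9 (40.4 CPM) and ABCC1 in F1 female SCA 4 (21.3 CPM).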

How the results depend on the processing

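DESeq2 called 1000 genes in the common effect (449 higher, 551 lower, 887 with 1 sign in all 4 strata), 187 in the F2 minus F1 difference (172 with opposite signs), 2 in the sex difference, and 358 in F1, 869 in F2 and 52 in F0 fitted alone. Without a filter on low counts F2 alone gave 124, and the fit of all 48 libraries gave 378 higher genes. The common effect called 88 (39 higher, 49 lower) without F1 females, 66 (23, 43) without F2 females, 300 (132, 168) without F2 males, 118 (49, 69) in F1 only and 194 (120, 74) in F2 only, fits with fewer libraries. Without F1 males, also a fit with fewer libraries, it called 605 (300, 305). It called 235 (111, 124; 229 with 1 sign) without both lane 2 libraries and 331 (160, 171; 315 with 1 sign) without F2 female SCA 8 and F2 male PH 11, where the difference called 44 (42 opposite). With the clock score it called 1045 (453, 592), and the difference 0 (0 opposite). The causes were not tested.

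Leaving out 1 library gave 314 to 1000 calls in the common effect (144 to 468 higher, 170 to 532 lower, 303 to 924 with 1 sign), 46 to 111 in the difference (43 to 106 opposite), 0 in the sex difference, 52 to 144 in F1, 74 to 1030 in F2 and 0 to 2 in F0. The common count moved by over 1.5 times without F2 female PH 4 (314), F1 female SCA 7 (341), F2 male PH 9 (863), F1 male SCA 14 (964) and F2 male SCA 10 (1000), and the difference without F2 male PH 9 (111). F2 alone gave 1030 without F2 male PH 9, 692 without F2 male SCA 10 and 537 without F2 female SCA 9. Of the 35 named genes tested in the common effect, 7 lost their call without F1 females, 9 without F2 females and 2 without F1 males, 16 in F1 only and 14 in F2 only, and the 16 named differences lost theirs with the clock score. No named gene lost its call in the 32 leave-one-out fits and none changed sign in any fit. No paired analysis was possible because PH and SCA libraries share at most 1 number within a descendant stratum.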
